A study of Mus musculus with 8 samples.

Results

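The 10 genes described here encode secreted growth factors and cytokines that are known to act on tumors and their surroundings: *Inhba*, *Tgfb1*, *Areg*, *Ereg*, *Hbegf*, *Osm*, *Il6*, *Il10*, *Vegfa* and *Pdgfb*. They were taken by symbol from the 27923 genes of the count tables, and all 10 had at least 1 unique molecular identifier (UMI) in the kept cells. The cells came from 2 lung tumors of the KP model, 1 tumor from each of 2 mice. The mice were 1 male and 1 female, so sex and tumor cannot be told apart. In this model an adenovirus with Cre under the surfactant protein C promoter (Adeno-SPC-Cre) recombines the floxed alleles, p53 fl/fl among them, and starts the tumors. The mice were chimeras made from KP embryonic stem cells on a C57BL/6 background, so stroma and immune cells can be of either origin, and tumors were started at 12 weeks of age and dissected 16 weeks later. From each tumor, cells of the Healthy/Tumor Border were labeled by light with caged calcein (calcein NVOC), sorted and run on 1 Seq-Well array, and non-photoactivated cells of the Whole Tumor were run on 3 technical arrays. The 8 libraries are thus 1 Border library and 3 Whole Tumor arrays for Tumor 1, and the same for Tumor 2, and region cannot be told apart from the photoactivation and sort. In all 8 count tables the cell names carry the number of the other tumor than the sample labels; Tumor 1 and Tumor 2 follow the labels here. Under the labels the Border tables hold 686 barcodes for Tumor 1 and 534 for Tumor 2. The study gives the same cell numbers to the same tumors, and to the Whole Tumors likewise.

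*Inhba* encodes the βA subunit of activin A and *Tgfb1* encodes TGF-β1, ligands that signal through serine/threonine kinase receptors to SMAD proteins. Amphiregulin (*Areg*), epiregulin (*Ereg*) and heparin-binding EGF-like growth factor (*Hbegf*) are made as membrane precursors, are shed by the protease ADAM17 and bind the EGF receptor family. Oncostatin M (*Osm*) and interleukin-6 (*Il6*) share the receptor chain gp130, encoded by *Il6st*, and signal through STAT3. Interleukin-10 (*Il10*) binds a different receptor and restrains inflammatory cells. VEGF-A (*Vegfa*) and the PDGF B chain (*Pdgfb*) act on endothelial cells and on pericytes and fibroblasts.

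In all, 3894 of 4343 barcodes with at least 200 genes were kept. Cells were gated by marker lists into 15 named classes, of which the neutrophil-like class (1676 cells), led by *S100a9*, *S100a8* and *G0s2*, was the largest; each of its 11 markers was detected in 10% or more of these cells. The study named a large *Csf3r*+ *G0s2*+ cluster Monocytes or Macrophages; cell names here were rebuilt and can divide the cells in another way. Another 551 barcodes with a median of 330.0 UMIs held mostly satellite transcripts, and 212 stayed ungated. The neutrophil-like share of a library was 68.4% at the Border of Tumor 1, 36.1 to 54.4% in its Whole Tumor arrays, 21.3% at the Border of Tumor 2 and 35.4 to 42.1% in its arrays. The Border of Tumor 1 held 424 neutrophil-like cells but only 2 macrophage-like cells, and array 2 of Tumor 2 was shallow, with a median of 675.5 UMIs against 1654.0 to 2525.5 in the other 7 libraries. The 10 barcodes found in more than 1 library were all primer-like or single-base runs.

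The promoters of 3 members that stood out in a small class of cells are shown, from 250 bases before to 50 after the start site (RefSeq, GRCm38.p6, all on the + strand): *Inhba* and *Il6*, which reached their highest level in fibroblast-like cells, and *Areg*, which reached it in cells like type 2 innate lymphoid cells (ILC2-like). RefSeq promoters were at hand for 5 members; those of *Ereg*, *Hbegf*, *Osm*, *Il10* and *Pdgfb* are not shown. Capitals mark matches on either strand to the letters of AP-1 (TGANTCA), CRE (TGACGTCA), NF-kB (GGANTTTCC), C/EBP (TTGCNNAA) or the TATA box (TATAAA).
Inhba, chr13:16011601-16011900: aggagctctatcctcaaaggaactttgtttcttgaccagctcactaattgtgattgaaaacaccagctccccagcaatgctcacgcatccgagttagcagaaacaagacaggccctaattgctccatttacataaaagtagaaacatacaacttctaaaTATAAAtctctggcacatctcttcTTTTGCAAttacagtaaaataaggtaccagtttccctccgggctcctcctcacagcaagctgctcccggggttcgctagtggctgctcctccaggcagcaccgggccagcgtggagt
Il6, chr5:30012864-30013163: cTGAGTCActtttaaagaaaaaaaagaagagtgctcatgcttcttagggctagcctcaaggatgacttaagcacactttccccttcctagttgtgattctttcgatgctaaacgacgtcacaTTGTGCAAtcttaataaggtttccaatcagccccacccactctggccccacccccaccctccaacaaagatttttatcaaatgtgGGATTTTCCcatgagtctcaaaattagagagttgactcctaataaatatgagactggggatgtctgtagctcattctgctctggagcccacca
Areg, chr5:91139349-91139648: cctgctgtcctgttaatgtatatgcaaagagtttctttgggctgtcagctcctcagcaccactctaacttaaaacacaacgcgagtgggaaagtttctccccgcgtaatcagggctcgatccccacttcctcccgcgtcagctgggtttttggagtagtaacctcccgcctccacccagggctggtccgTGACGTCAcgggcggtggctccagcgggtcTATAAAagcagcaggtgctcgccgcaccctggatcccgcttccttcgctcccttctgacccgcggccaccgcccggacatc
The *Inhba* window held 1 C/EBP and 1 TATA match, which 10.8% and 13.6% of the 32851 promoters of the same length also hold. The *Il6* window held 1 match each of AP-1 (7.81% of promoters), NF-kB (1.25%) and C/EBP. In *Areg*, 1 CRE match (1.79% of promoters) began 61 bases before the start site and 1 TATA match began 31 bases before it. The *Tgfb1* window held none of these letters, and none of the 5 held the letters searched for SMAD (GTCTAGAC). The hypoxia motif ACGTG, held by 19.6% of promoters, was found in 1 of the 2 *Vegfa* windows. That window (chr17:46025114-46025413) lies inside the annotated gene. The window at the annotated start of the gene (chr17:46032328-46032627) held no match.

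Each member has 1 locus in the GENCODE annotation of GRCm38 (mm10). *Inhba* lies at chr13:16011851-16031621 (+), *Tgfb1* at chr7:25687002-25705077 (+), *Hbegf* at chr18:36504927-36515805 (-) and *Osm* at chr11:4236420-4241026 (+). *Areg* (chr5:91139599-91148432, +) and *Ereg* (chr5:91074622-91093646, +) are neighbors on the same strand, and *Il6* is elsewhere on that chromosome (chr5:30013114-30019981, +). *Il10* lies at chr1:131019845-131024974 (+), *Vegfa* at chr17:46016993-46032369 (-) and *Pdgfb* at chr15:79995874-80014977 (-). Annotated genes on the opposite strand overlap *Inhba* (*B230303A05Rik* and *Gm48444*), *Ereg* (*Gm19610*) and *Pdgfb* (*Gm41361*), and *Mir7213* lies within *Pdgfb* on its own strand.

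To ask which cells carry each factor, UMIs were summed over the kept cells of each class. Over both tumors, neutrophil-like cells were the largest source of 5 of the 10 members: *Hbegf* (64.7% of 1970 UMIs), *Inhba* (53.0% of 1589), *Osm* (50.3% of 1927), *Vegfa* (49.7% of 6089) and *Tgfb1* (38.4% of 1557). These cells held 40.4% of all UMIs, so the share of *Tgfb1* was slightly below their share of the RNA. How many of all genes these cells led was not counted, so the count of 5 has no background beside it. Without the Border of Tumor 1, the library with the most of these cells, the share of *Inhba* was 31.7% and that of *Tgfb1* 28.6%, still the largest of any class. The order differed between the tumors. In the 4 libraries of Tumor 1 neutrophil-like cells led the same 5 members, but in those of Tumor 2, a split made after seeing the data, they led only *Osm* (51.4%) and *Vegfa* (42.2%). There *C1q*+ macrophage-like cells led *Inhba* (35.2% against 27.9%), *Hbegf* (34.1% against 28.6%) and *Tgfb1* (33.5% against 14.0%). *C1q*+ macrophage-like cells, with 15.4% of all UMIs, were the largest source of *Il10* (57.3% of 82 UMIs), *Pdgfb* (54.6% of 271) and *Areg* (27.2% of 738). Without the Border of Tumor 2 the shares of *Il10* and *Pdgfb* were 28.6% and 28.8%, and *Krt*+ tumor-like cells led for *Areg* (34.6%), as they did without array 1 or array 3 of Tumor 2 (27.4% and 30.8%). In the libraries of Tumor 1, *Krt*+ tumor-like cells led *Areg* (52.1%) and *Pdgfb* (37.8%), and *Prg4*+ macrophage-like cells led *Il10* (42.9%, 6 UMIs in 3 cells). Fibroblast-like cells, only 43 cells with 1.59% of all UMIs, were the largest source of *Ereg* (61.2% of 276) and *Il6* (36.0% of 225). Without array 2 of Tumor 1 the *Ereg* share was 28.4%, and without array 1 or array 3 of Tumor 2 *Prg4*+ macrophage-like cells led for *Il6* (35.6% and 46.2%). No test was run between classes, since cells of 1 library are not replicates. The number of members led by neutrophil-like cells fell to 2 (*Inhba* and *Osm*) when classes were ranked by their mean level per library, over libraries with at least 20 cells of the class, in place of summed UMIs. That limit left fibroblast-like cells, with at most 11 in a library, and 6 other small classes unranked.

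**Figure D1:**
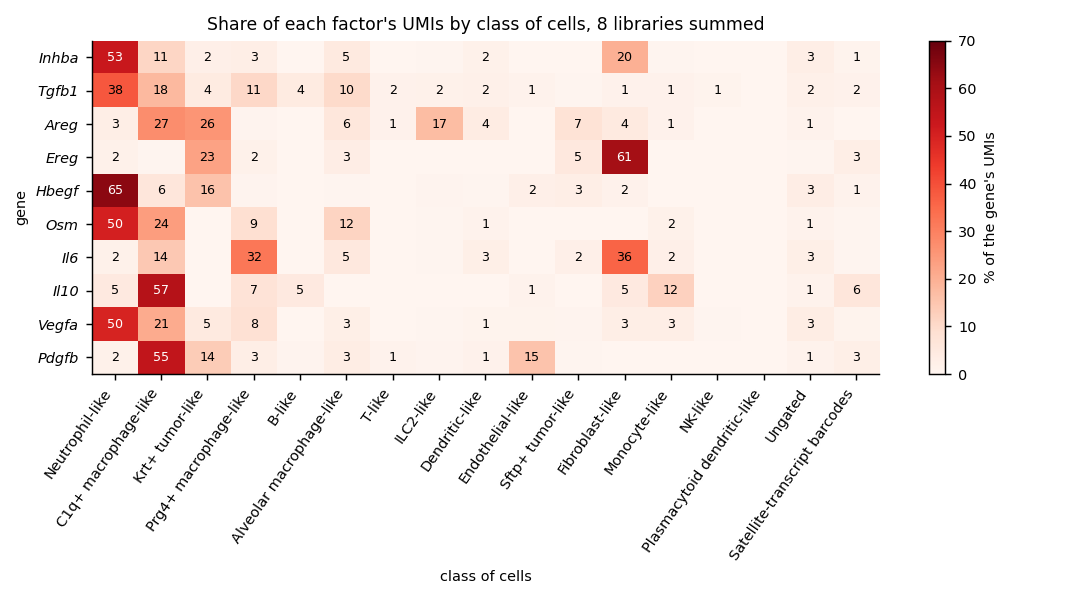
Share of the UMIs of each factor (rows) held by each class of cells (columns), in percent of the gene's UMIs summed over 8 libraries; shares under 1% carry no number. Over both tumors, neutrophil-like cells held the largest share of *Hbegf* (65%), *Inhba*, *Osm*, *Vegfa* and *Tgfb1*, while most UMIs of *Il10* and *Pdgfb* came from *C1q*+ macrophage-like cells and *Ereg* (61%) from fibroblast-like cells.

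The members differed in how widely they were found. *Vegfa* and *Tgfb1* had UMIs in all 15 named classes, and 36.9% and 23.2% of all kept cells carried at least 1. *Ereg* and *Il10* had none in 8 of the 15 classes and were found in 1.28% and 1.03% of cells. A few cells held much of the rarer factors: the 10 cells with the most UMIs held 78.3% of *Ereg*, 57.3% of *Il10*, 52.4% of *Il6* and 38.6% of *Areg*, against 5.27% of *Tgfb1* and 6.49% of *Vegfa*. B-like cells, which are not known as a source of the EGF ligands, served as a measure of free RNA, mainly for Tumor 2, since only 3 were from the Border of Tumor 1 and 2 to 10 from each of its arrays. Of 156 B-like cells (median 1876.5 UMIs), 0 had a UMI of *Hbegf*, *Areg*, *Ereg* or *Il6*, which allows a share of up to 1.92%, while 0.641% had *Inhba*, 1.92% *Osm*, 2.56% *Vegfa* and 21.8% *Tgfb1*. In neutrophil-like cells (median 2056.5 UMIs) the shares were 22.9% for *Hbegf*, 12.0% for *Inhba* and 21.4% for *Osm*, 47.4% for *Vegfa* and 22.9% for *Tgfb1*, but 0.537% for *Areg*, 0.179% for *Ereg* and 0.239% for *Il6*, which lie under that limit, so at this depth these shares cannot be told from background. For *Tgfb1* the share was near that of B-like cells, so this measure does not set the classes apart. The shares differed between the tumors. In Tumor 1, 25.2 to 40.1% of neutrophil-like cells had *Hbegf* and 7.98 to 23.8% *Inhba*. At the Border of Tumor 2 these shares were 14.8% and 19.4%. In its arrays they were 1.94 to 5.08% and 0 to 4.24%, while 35.5 to 52.1% had *Osm*. A single cell of array 3 of Tumor 2 held 11 of the 21 *Areg* UMIs of the class.

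*Inhba* was higher at the Border than in the Whole Tumor in neutrophil-like cells of both tumors. In Tumor 1, it reached 484 UMIs per 1000000 UMIs of the class (CPM; 95% exact Poisson interval 443 to 528) at the Border, against 127, 158 and 103 CPM in the 3 Whole Tumor arrays. In Tumor 2, it reached 274 CPM (210.1 to 351) at the Border, against 17.6, 0 and 50.8 CPM in the arrays, where array 2 with 0 UMIs allows up to 28.5 CPM. The Border lay above all 3 arrays in both tumors, 3.74-fold above their mean of 130 ± 27.8 CPM (SD, n = 3) in Tumor 1 and 12.0-fold above 22.8 ± 25.8 CPM in Tumor 2. In edgeR's quasi-likelihood test *Inhba* was raised by 2.42 ± 0.33 on the log2 scale in Tumor 1 (± SE; adjusted p = 3.46e-06) and by 2.57 ± 0.46 in Tumor 2 (adjusted p = 6.05e-04). The size in Tumor 2 depends on array 3, without which it was 4.15 (adjusted p = 6.87e-04), and the call was lost among cells with no UMI of *Retnlg*, a gene described below (1.57 ± 0.50, adjusted p = 0.0984). The same order was seen in single cells: 23.8% of neutrophil-like cells carried an *Inhba* UMI at the Border of Tumor 1 and 7.98 to 12.3% in its arrays, and after thinning each cell to 1000 UMIs these shares were 18.9% and 3.60 to 7.25%, with 48 Border cells and 24 to 26 cells per array too shallow to thin. In Tumor 2 the thinned shares were 11.7% at the Border and 1.22, 0 and 2.71% in the arrays (unthinned 19.4% and 2.59, 0 and 4.24%), with 14 Border cells and 34, 136 and 15 array cells left out. Intervals here and below cover counting error only, and the p-values measure the spread between technical arrays of 1 mouse per tumor, with the lone Border library assumed to vary like the arrays.

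Fibroblast-like cells, marked by *Mgp*, *Col3a1* and *Dcn*, had the highest *Inhba* level of any class, 2040 CPM (1820 to 2279) summed over all libraries, but 296 of their 313 UMIs came from 9 cells of array 2 of Tumor 1. In the other libraries they had 0 to 7 UMIs in 1 to 11 cells. Of the 43 fibroblast-like cells, 9 carried both *Inhba* and *Ereg*, 5 *Inhba* alone and 1 *Ereg* alone. A single cell held 81 *Inhba* and 108 *Ereg* UMIs among its 7079 UMIs. *Inhba* was also found in *C1q*+ macrophage-like cells, at 133 CPM at the Border of Tumor 2 against 15.9, 0 and 68.9 CPM in its arrays, and 146, 127 and 365 CPM in the arrays of Tumor 1, where 1, 3 and 5 cells carried it.

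*Tgfb1* was found widely. Its level ran from 35.2 CPM in *Sftp*+ tumor-like cells to 284 CPM (241 to 332) in alveolar macrophage-like cells, and exceeded 100 CPM in 12 of the 15 classes. The 3 macrophage-like classes together held 599 UMIs and neutrophil-like cells 598. In neutrophil-like cells of Tumor 1 it was 210.2 CPM at the Border and 193, 149 and 168 CPM in the arrays, and in Tumor 2 it was 150.3 CPM at the Border and 48.5, 95.1 and 70.1 CPM in the arrays. The Border was above every array in both tumors, but the changes of 0.86 ± 0.30 and 0.71 ± 0.40 on the log2 scale did not pass the edgeR threshold (adjusted p = 0.0748 and 0.317). In Tumor 1 it passed in 1 alternative, without array 1 (adjusted p = 0.0482).

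**Figure D2:**
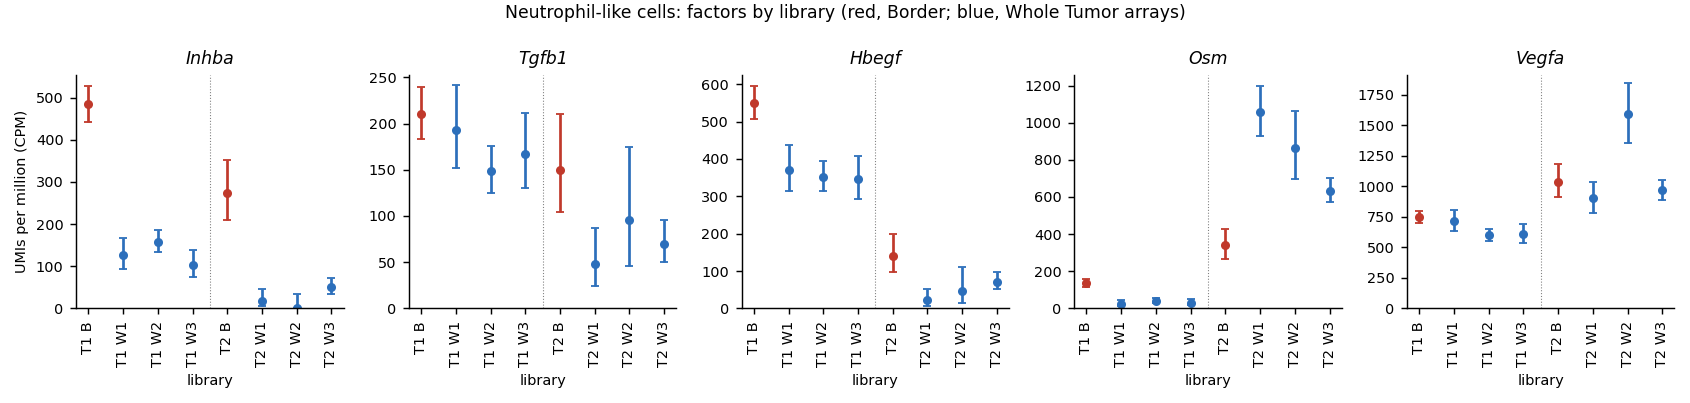
Level of 5 factors in neutrophil-like cells by library (T1 and T2, Tumor 1 and Tumor 2; B, Healthy/Tumor Border; W1 to W3, Whole Tumor arrays), in UMIs per 1000000 UMIs of the class; bars are 95% exact Poisson intervals. *Inhba* was higher at both Borders, whereas *Osm* was above its arrays at the Border of Tumor 1 (134 CPM) and below them at the Border of Tumor 2 (340.3 CPM).

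*Hbegf* was carried by neutrophil-like, epithelial and *C1q*+ macrophage-like cells. In the libraries of Tumor 2 the *C1q*+ class held the largest share (34.1% against 28.6% in neutrophil-like cells). In neutrophil-like cells of Tumor 1 it measured 549.8 CPM (506 to 596) at the Border and 372, 353 and 347 CPM in the arrays. In Tumor 2 it measured 141 CPM (96.7 to 199.6) at the Border and 22.0, 47.6 and 71.8 CPM in the arrays. The Border was above all arrays in both tumors, and all 4 libraries of Tumor 1 were above all 4 of Tumor 2. The rise in Tumor 1 passed the edgeR test (1.16 ± 0.29 on the log2 scale, adjusted p = 8.62e-03), but not on the CPM scale (0.60 ± 0.27, adjusted p = 0.112) or with cells of at least 500 genes (adjusted p = 0.0739). In Tumor 2 the difference was 0.97 ± 0.44 (adjusted p = 0.191), and it passed without array 3 (1.85, adjusted p = 0.0353) and on the CPM scale (1.41, adjusted p = 0.0281). Summed over all libraries, *Krt*+ and *Sftp*+ tumor-like cells stood at 440.2 CPM (393 to 492) and 416 CPM and endothelial-like cells at 271 CPM, but 1 *Krt*+ cell of array 1 of Tumor 1 held 82 of that library's 174 UMIs and 1 *Sftp*+ cell of array 2 held 29 of 35. Within Tumor 1, neutrophil-like cells were above *Krt*+ cells in 3 of 4 libraries; in *Krt*+ cells the arrays of Tumor 1 gave 851, 307 and 259.9 CPM and the Border, with 11 cells, 113 CPM. In neutrophil-like cells, 66 carried both *Hbegf* and *Inhba*, 317 *Hbegf* alone and 135 *Inhba* alone.

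*Areg* was nearly absent from neutrophil-like cells, with 21 UMIs in 1676 cells. Several other classes carried it. In *C1q*+ macrophage-like cells of Tumor 2 it had 133 UMIs at the Border (177 CPM in 162 cells) and 23, 1 and 44 UMIs in the arrays (183, 17.0 and 168 CPM). In the same class of Tumor 1 it had 0 UMIs in 66 cells of the Whole Tumor arrays, which allows up to 10.4 CPM over the 3 arrays, and 0 in the single cell of the Border. *Krt*+ tumor-like cells of Tumor 1 carried it at the Border (38 UMIs in 11 cells, 713 CPM) and in the arrays (84, 50 and 12 UMIs; 411, 185 and 78.0 CPM), while Tumor 2 had only 1 to 4 such cells in a library. ILC2-like cells had the highest level of all classes (644 CPM, 537 to 767), yet with 1659, 104 and 2334 CPM in the arrays of Tumor 1, 1101 CPM at the Border of Tumor 2 and 232, 106 and 62.7 CPM in its arrays, and 1 cell held 52 of their 127 UMIs and another 40. *Sftp*+ tumor-like cells followed at 388 CPM, with a UMI in 35.3% of 51 cells. The order of ILC2-like, *Sftp*+ and *Krt*+ cells (269 CPM) rests on few cells, and the arrays of Tumor 1 overlapped between these classes.

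*Ereg* came mainly from fibroblast-like and epithelial cells, with 5 UMIs in all neutrophil-like cells. Fibroblast-like cells held 150 UMIs in array 2 of Tumor 1, 8 in array 3, 2 at the Border of Tumor 2 and 9 in its array 2, with 0 elsewhere. The cell with 108 UMIs alone held 39.1% of the gene's total. *Krt*+ tumor-like cells held 63 UMIs (89.8 CPM), 53 of them in array 2 of Tumor 1, where 1 cell held 34. In *Krt*+ cells, 8 carried both *Areg* and *Ereg*, 40 *Areg* alone and 8 *Ereg* alone.

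**Figure D3:**
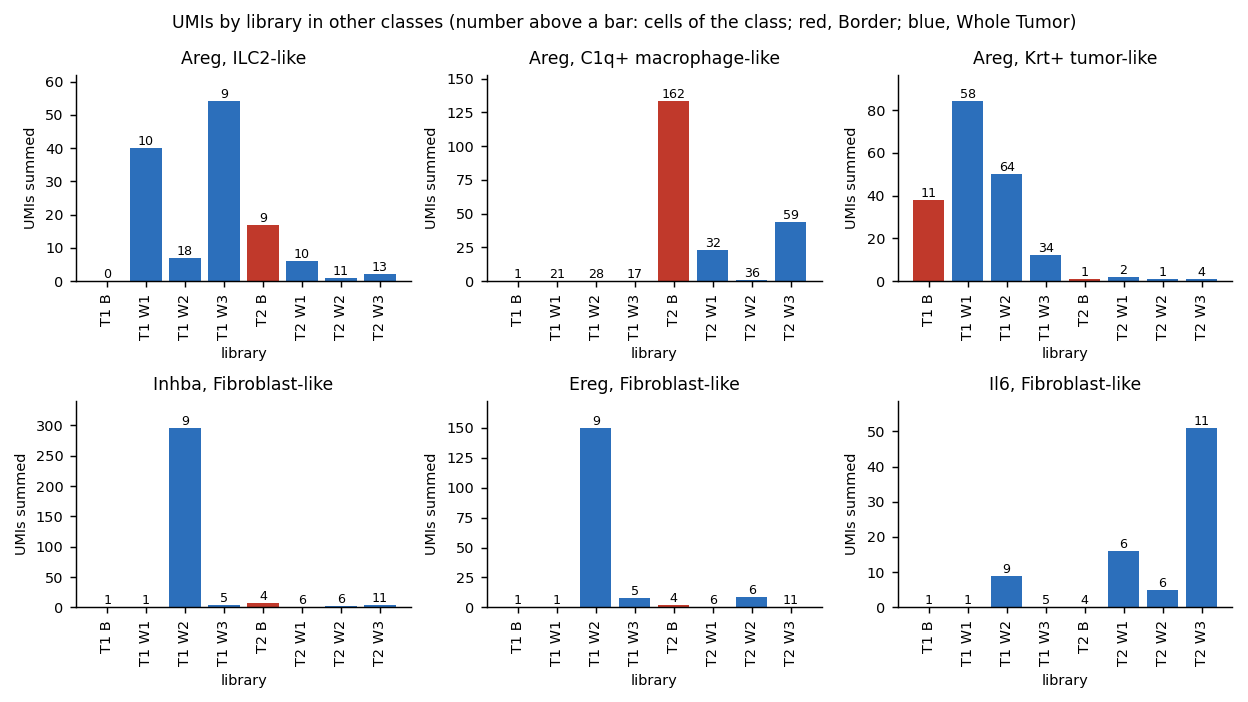
UMIs of *Areg*, *Inhba*, *Ereg* and *Il6* summed per library in ILC2-like, *C1q*+ macrophage-like, *Krt*+ tumor-like and fibroblast-like cells (bars start at 0; the number above each bar is the number of cells; T1, T2, B and W1 to W3, tumors, Border and Whole Tumor arrays). *Areg* in *C1q*+ macrophage-like cells was found in Tumor 2 only, and fibroblast-like *Inhba* and *Ereg* came mostly from 9 cells of array 2 of Tumor 1 (296 and 150 UMIs).

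*Osm* changed in opposite directions in neutrophil-like cells of the tumors. In Tumor 1 it was 134 CPM (113 to 158) at the Border and 25.5, 39.3 and 31.1 CPM in the arrays. In Tumor 2 it was 340.3 CPM (269 to 425) at the Border and 1058, 866 and 634 CPM in the arrays. The Border of Tumor 1 was 4.20-fold above the mean of its arrays (32.0 ± 6.97 CPM, SD, n = 3), and the Border of Tumor 2 was at 0.399 of the mean of its own (852 ± 212 CPM). Both passed the edgeR test, with 2.54 ± 0.32 on the log2 scale in Tumor 1 (adjusted p = 9.68e-07) and -1.71 ± 0.33 in Tumor 2 (adjusted p = 1.41e-03). The call in Tumor 2 was lost with cells of at least 500 genes (-1.57, adjusted p = 0.0962). It also did not hold under every split of these cells tried after seeing the data, as given below. Macrophage-like cells also carried *Osm*, at 414 CPM (362 to 472) in the alveolar, 309 CPM in the *C1q*+ and 240.1 CPM in the *Prg4*+ class summed over all libraries. The alveolar class came mostly from Tumor 2, with 1 to 5 cells in a library of Tumor 1. The *Prg4*+ class came mostly from Tumor 1, with 0 to 7 cells in a library of Tumor 2. Class and tumor thus cannot be told apart between the alveolar and *Prg4*+ classes. *C1q*+ cells came from both tumors, with 17 to 28 in an array of Tumor 1. In the arrays of Tumor 2 the alveolar class had 447, 126 and 559.6 CPM and the *C1q*+ class 413, 187 and 341 CPM, which overlap. Fibroblast-like, endothelial-like and *Sftp*+ tumor-like cells had 0 UMIs and *Krt*+ cells had 1. All 852 UMIs of the macrophage-like classes made up 44.2% of the gene's total.

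Most *Il6* UMIs of Tumor 2 were in a few fibroblast-like cells, and most of those of Tumor 1 in *Prg4*+ macrophage-like cells. In fibroblast-like cells it had 16, 5 and 51 UMIs in the arrays of Tumor 2, carried by 1 of 6, 1 of 6 and 3 of 11 cells, and 9 in array 2 of Tumor 1. The other libraries had 0, but with 1 such cell at the Border of Tumor 1 and 4 at that of Tumor 2, levels of up to 11070.1 and 182 CPM are allowed there. In *Prg4*+ macrophage-like cells it had 16, 41 and 9 UMIs in the arrays of Tumor 1 (48, 56 and 45 cells) and 6 in the 7 cells at the Border of Tumor 2, all in 1 cell. In array 3 of Tumor 1, *C1q*+ macrophage-like cells held more, with 15 UMIs (219 CPM), 9 of them in 1 cell. Of the *Prg4*+ cells, 15.0% carried a UMI. The class is led by *Prg4*, *Marco* and *Saa3*, and 138 of its 160 cells had at least 2 markers of a second class as well. That held for 198 of 356 *C1q*+, 91 of 175 *Krt*+ and 22 of 43 fibroblast-like cells, and for 215 of 1676 neutrophil-like cells. No *Il6* UMI was found at the Border of Tumor 1, in 620 cells.

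*Il10* was rare, with 82 UMIs in 40 cells, and was found mainly in Tumor 2. *C1q*+ macrophage-like cells of Tumor 2 held 35 UMIs at the Border (46.7 CPM, 32.5 to 64.9) and 3, 7 and 2 in the arrays (23.9, 119 and 7.66 CPM). The Border was above arrays 1 and 3, and the 7 UMIs of array 2 were all in 1 cell. In the 66 such cells of the Tumor 1 arrays, 0 UMIs allow up to 10.4 CPM, while *Prg4*+ macrophage-like cells held 3, 3 and 0 UMIs there. Monocyte-like cells held 10 UMIs, 9 of them in array 3 of Tumor 2.

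*Vegfa* was found in every class, with 3029 UMIs in neutrophil-like cells (775 CPM, 748 to 803), 1280 in *C1q*+ macrophage-like cells (861 CPM) and 499 in *Prg4*+ macrophage-like cells (722 CPM). Summed over all libraries, fibroblast-like (1153 CPM) and monocyte-like cells (1055 CPM) had the highest levels. In fibroblast-like cells 137 of 177 UMIs came from array 2 of Tumor 1. Of the 38 monocyte-like cells only 1 was from Tumor 1, so this order mixes class and tumor. In neutrophil-like cells it was 747 CPM at the Border of Tumor 1 and 718, 599 and 610.3 CPM in its arrays, and 1039 CPM at the Border of Tumor 2 and 903, 1589 and 967 CPM in its arrays. The Border of Tumor 1 was just above its arrays and that of Tumor 2 was within its own. Neither difference passed the edgeR test (0.76 ± 0.26, adjusted p = 0.0762, and -0.51 ± 0.29, adjusted p = 0.317), but that of Tumor 1 passed without array 2 of Tumor 2 (0.76, adjusted p = 0.0352), which shares the estimate of the spread.

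*Pdgfb* had UMIs in 11 of the 15 named classes, most of them in *C1q*+ macrophage-like, endothelial-like and *Krt*+ tumor-like cells. In the *C1q*+ class it was 135 CPM (109.7 to 164) at the Border of Tumor 2, within its arrays (167, 51.0 and 53.6 CPM), and 32.4, 25.4 and 43.8 CPM in the arrays of Tumor 1. The 56 endothelial-like cells reached 237 CPM (171 to 321), the highest of all classes, from 42 UMIs, 20 of them in array 3 of Tumor 1. *Krt*+ tumor-like cells held 37 UMIs (52.7 CPM), all in Tumor 1, with 3 at the Border and 11, 9 and 14 in the arrays. Neutrophil-like cells held 5 UMIs of *Pdgfb* in all.

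For the comparison of Border with Whole Tumor across all genes in neutrophil-like cells, 6526 genes passed the filter on low counts, 5 members among them. In Tumor 1, 3 of the 5 changed (*Inhba*, *Hbegf* and *Osm*), against 7.31% of all genes tested (6.14% higher and 1.16% lower). In Tumor 2, 2 of the 5 changed (*Inhba* higher and *Osm* lower), against 6.56% (2.19% higher and 4.37% lower). The filter keeps genes that are high in at least some libraries, so these 5 are not all 10 members. The scale matters here, since TMM normalization moved the median gene by 0.56 on the log2 scale in Tumor 1 and by -0.44 in Tumor 2 relative to plain CPM; *Inhba* and *Osm* passed in the same direction on both scales. Of the genes called, 84.1% were higher at the Border of Tumor 1 and 33.4% at that of Tumor 2, against 16.2% and 77.3% on the CPM scale.

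**Figure D4:**
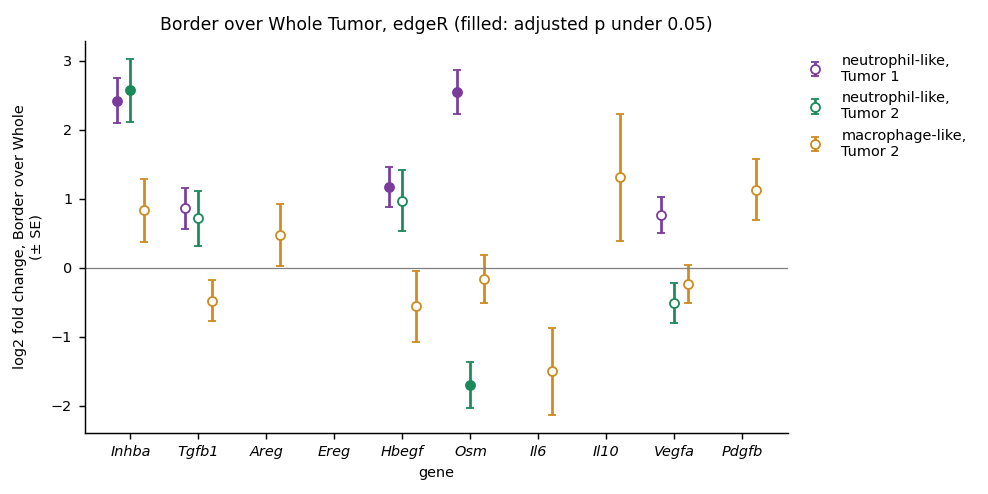
Change of each factor at the Border over the Whole Tumor (log2, y axis, with SE bars) in neutrophil-like cells of Tumor 1 and Tumor 2 and in macrophage-like cells of Tumor 2; filled points have an adjusted p under 0.05, and factors below the filter have no point. *Inhba* was raised at both Borders (2.42 and 2.57). Among cells with no UMI of *Retnlg* the change of *Inhba* in Tumor 2 was 1.57 ± 0.50, which did not pass. *Osm* was raised in Tumor 1 (2.54) and lowered in Tumor 2 (-1.71, a call that did not hold in every setting).

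The difference between the tumors in these changes was tested itself. It was -4.25 ± 0.47 on the log2 scale for *Osm* (edgeR, adjusted p = 2.14e-07) and -1.27 ± 0.39 for *Vegfa* (adjusted p = 0.0382), against 9.22% of all genes called (2.47% higher and 6.76% lower). For *Vegfa* the call held in 7 of 14 settings, and was lost on the CPM scale, where the difference was -0.32 (adjusted p = 0.559), and without array 2 or 3 of Tumor 1 or array 2 of Tumor 2 (adjusted p = 0.0682, 0.0822 and 0.0506). The changes of *Inhba*, *Tgfb1* and *Hbegf* differed by 0.15 ± 0.59, -0.15 ± 0.51 and -0.20 ± 0.54, which did not pass, and this does not show that they were alike.

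Neutrophil-like cells themselves differed between the libraries. *Retnlg*, which encodes a resistin-like protein and is known in mature blood neutrophils, stood at 7.65 to 71.3 CPM in the 4 libraries of Tumor 1. In Tumor 2 it stood at 459.6 CPM at the Border and at 1095 to 1454 CPM in the arrays. *Siglecf* (listed as *Siglec5*), which is known on a neutrophil population of lung tumors, ran the other way between the arrays of the tumors, at 137 CPM at the Border of Tumor 1, 339.7 to 369 CPM in its arrays, 190.03 CPM at the Border of Tumor 2 and 22.0 to 47.6 CPM in its arrays. Cells with no UMI of *Retnlg* made up 97.5 to 99.04% of the class in Tumor 1, 79.6% at the Border of Tumor 2 and 44.5 to 63.2% in its arrays.

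Levels were therefore also given apart for cells with and without a *Retnlg* UMI, a split chosen after these values were seen. Without one, *Inhba* was 250.4 CPM at the Border of Tumor 2 (86 cells) against 35.7, 0 and 113 CPM in the arrays (60, 98 and 105 cells), and with one it was 342 CPM against 7.002, 0 and 8.79 CPM. *Osm* without one was 197 CPM at that Border against 357, 730.2 and 435 CPM, and with one 752 CPM against 1470.5, 1080 and 768 CPM. The Border lay above the arrays for *Inhba* in both sets of cells. For *Osm* it lay below them in cells without a *Retnlg* UMI, and in cells with one it was near array 3. *Hbegf* at that Border was 185 CPM without one, above the arrays (35.7, 77.7 and 91.4 CPM). With one it was 17.1 CPM (1 UMI), within the arrays (14.0, 0 and 58.6 CPM). Among cells without one, the change of *Inhba* at the Border of Tumor 2 did not pass the edgeR test, as given above, and that of *Osm* was near the threshold (-1.55 ± 0.41, adjusted p = 0.0381), a call that did not hold under every such split tried, while those of Tumor 1 passed (*Inhba* 2.34 ± 0.34; *Osm* 2.44 ± 0.36), as did the difference between the tumors for *Osm* (-3.99 ± 0.55). A shallow cell can lack such a UMI by chance: in array 1 of Tumor 2 the median was 855.0 UMIs without and 2432.5 with one. Markers of other cells were also counted within the neutrophil-like class: 30 macrophage markers summed to 5.47 per 10000 UMIs at the Border of Tumor 1 and 7.41 to 28.6 in its arrays, with 12 of 30 at 0 at the Border, and to 5.52 and 3.33 to 9.61 in Tumor 2, with 14 of 30 at 0 at its Border. The 19 epithelial markers summed to 0.96 per 10000 UMIs at the Border of Tumor 1 and 1.21 to 2.32 in its arrays. In Tumor 2 they summed to 2.43 and 1.89 to 2.42. The mitochondrial share of the class was 3.94% at the Border of Tumor 1, below the 4.56 to 6.41% of its arrays. In Tumor 2 it was 4.91% and 3.88 to 6.01%. The part of these markers and of the mitochondrial share in the results was not tested.

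**Figure D5:**
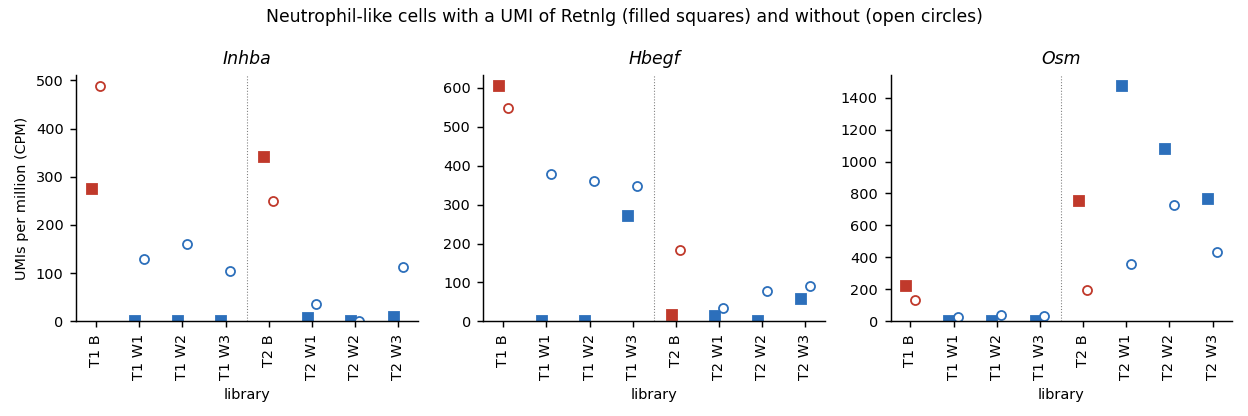
Level of *Inhba*, *Hbegf* and *Osm* (UMIs per 1000000 UMIs of the cells shown) in neutrophil-like cells with a UMI of *Retnlg* (filled squares) and without (open circles), by library (red, Border; blue, Whole Tumor arrays; T1, T2, B and W1 to W3, tumors, Border and Whole Tumor arrays). In Tumor 2, *Inhba* was higher at the Border than in the arrays in both sets of cells (342 and 250.4 CPM at the Border), and *Osm* was higher in cells with such a UMI in all 4 libraries; the squares of Tumor 1 rest on 2 to 8 cells each.

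In macrophage-like cells of Tumor 2 (the *C1q*+, alveolar and *Prg4*+ classes pooled; the Border of Tumor 1 had too few cells and was left out of the fit), 9 members were tested and 0 changed. Across all genes 2.81% were called (1.64% higher and 1.17% lower), and at an unadjusted p under 0.05 there were 2 members, *Pdgfb* and *Il6*. *Pdgfb* was 121 CPM at the Border and 106, 21.5 and 35.3 CPM in the arrays (1.13 ± 0.44, edgeR, adjusted p = 0.212), and without array 1 the difference was 1.85 (adjusted p = 0.0225). *Il6* was 9.52 CPM at the Border and 22.1, 50.1 and 20.4 CPM in the arrays, below all of them (-1.51 ± 0.63, adjusted p = 0.251). *Inhba* was 136 CPM at the Border and 57.4, 0 and 115 CPM in the arrays (0.83 ± 0.45, adjusted p = 0.433). DESeq2 called 0 as well, and gave an adjusted p to 3 of the 9 only. The makeup of the pooled class differed between Border and arrays, with 162 *C1q*+ and 14 alveolar cells at the Border against 32 and 25, 36 and 34, and 59 and 46 in the arrays.

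The Whole Tumor arrays compare the 2 tumors, each from 1 mouse, and the mice differed in sex. In neutrophil-like cells, 4 of 5 tested members differed, against 40.2% of all genes (21.2% higher and 19.0% lower in Tumor 2). *Osm* was higher in Tumor 2 by 5.43 ± 0.26 on the log2 scale (edgeR, adjusted p = 6.55e-17), the ranges of the arrays being 25.5 to 39.3 and 634 to 1058 CPM. *Vegfa* was higher by 1.59 ± 0.20 (adjusted p = 1.11e-07). *Hbegf* was lower, at -1.92 ± 0.29 (adjusted p = 2.64e-06), and so was *Inhba*, at -1.13 ± 0.37 (adjusted p = 0.0162). The *Inhba* call was lost without array 1 or array 2 of Tumor 2 (adjusted p = 0.0848 and 0.0530) and among cells with no UMI of *Retnlg* (-0.38 ± 0.40). *Tgfb1* did not pass (-0.50 ± 0.28, adjusted p = 0.158), but did on the CPM scale (-1.33, adjusted p = 1.56e-04). TMM normalization moved the median gene of this comparison by 0.83 on the log2 scale relative to plain CPM, on which *Osm* was higher by 4.64 and *Vegfa* by 0.80 and *Hbegf* and *Inhba* were at -2.76 and -1.97, all still called. Among cells with no UMI of *Retnlg*, *Osm* was higher by 4.36.

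In all kept cells together, 7 of the 10 members differed between the Whole Tumors, against 25.2% of all genes (14.3% higher and 11.0% lower in Tumor 2). In such sums, fewer cells of a type and less RNA of a gene per cell cannot be told apart. *Osm* was 42.7, 77.8 and 72.6 CPM in Tumor 1 and 477, 329 and 357 CPM in Tumor 2 (2.87 ± 0.21, edgeR, adjusted p = 3.33e-08). *Hbegf* was 349, 235 and 207 CPM against 39.5, 88.1 and 76.3 CPM (-1.65 ± 0.26, adjusted p = 1.19e-04). *Il10* was 3.98, 3.47 and 0.955 CPM against 6.81, 21.4 and 8.36 CPM (2.13 ± 0.64, adjusted p = 0.0195), a call that was lost without array 3 of Tumor 1 or array 2 of Tumor 2 (adjusted p = 0.0607 and 0.0789) and with cells of at least 500 genes (0.0721). The arrays of the tumors did not overlap for these 3 members or for *Inhba* and *Il6*, nor did they for 47.3% of all genes tested. *Inhba* (105, 255 and 85.0 against 30.0, 5.34 and 60.7 CPM; -1.62 ± 0.43, adjusted p = 8.86e-03) and *Ereg* (9.94, 104 and 20.1 against 6.81, 29.4 and 2.79 CPM; -2.25 ± 0.80, adjusted p = 0.0464) were lower in Tumor 2. Both calls were lost without array 2 of Tumor 1 (adjusted p = 0.0743 and 0.734) and with DESeq2 (0.164 and 0.478), and that of *Ereg* also without array 1 or 3 of Tumor 2 (0.115 and 0.290) and with cells of at least 500 genes (0.139). *Il6* (0.78 ± 0.26, adjusted p = 0.0385) and *Vegfa* (0.53 ± 0.17, adjusted p = 0.0334) passed, but held in only 4 of 11 settings each. For *Areg*, *Tgfb1* and *Pdgfb* the differences were -0.09 ± 0.31, 0.26 ± 0.18 and 0.28 ± 0.39 (adjusted p = 0.873, 0.327 and 0.651).

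The receptors of the members were spread over several classes. Of 22 receptor genes, 7 had their most UMIs in neutrophil-like cells, 5 in *C1q*+ macrophage-like cells and 5 in fibroblast-like cells. The same count over all genes was not made. *Egfr*, the receptor of the EGF ligands, had 59 of its 140 UMIs in fibroblast-like cells, and *Erbb3* had 71 of 125 in *Krt*+ tumor-like cells. *Osmr*, the receptor chain for oncostatin M, had 50 of 152 UMIs in fibroblast-like cells. *Kdr* and *Flt1*, receptors of VEGF-A, had 63 of 97 and 233 of 477 UMIs in endothelial-like cells. *Pdgfrb*, the receptor of the PDGF B chain, had 35 of 66 UMIs in fibroblast-like cells. *Il10ra* had 971 of 1543 UMIs in neutrophil-like cells. *Tgfbr1* had 579 of 1498 there, a share just under the 40.4% of all UMIs that these cells held. Of the processing genes, *Adam17* (1336 of 2169 UMIs), the sheddase of the EGF ligands, and *Furin* (2094 of 3808), which cuts the TGF-β and activin precursors, came mostly from neutrophil-like cells, while *Fst*, the activin antagonist follistatin, had 57 of 84 UMIs in fibroblast-like cells. Of the 22 related ligands, 21 had UMIs; *Inhbb*, the βB subunit of activin, had 287 of 430 in endothelial-like cells, and *Pgf*, a VEGF relative, had 229 of 534 in *C1q*+ macrophage-like cells.

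Genes that are known to respond to these ligands were counted in neutrophil-like cells at the Border. Of 16 such feedback and target genes, 12 were tested; in Tumor 1, 5 were higher and 0 lower (7.31% of all genes were called), with a median change of 0.73 on the log2 scale beside -0.06 for all genes. The 5 were *Egr1* (2.14 ± 0.24, edgeR, adjusted p = 1.57e-07), *Errfi1* (1.70 ± 0.38), *Tgif1* (1.34 ± 0.28), *Socs3* (1.03 ± 0.28) and *Pim1* (0.89 ± 0.24). In Tumor 2, 1 was higher (*Ski*, 1.59 ± 0.34) and 3 were lower (*Pim1*, -1.28 ± 0.28; *Egr1*, -1.10 ± 0.29; *Socs3*, -1.06 ± 0.33; 6.56% of all genes), with a median of 0.01 beside 0.03. The difference between the tumors itself passed for 5 of the 12 (9.22% of all genes), namely *Egr1* (-3.24 ± 0.40), *Pim1* (-2.17 ± 0.37), *Socs3* (-2.08 ± 0.44), *Dusp6* (-1.42 ± 0.46) and *Ski* (1.48 ± 0.45). On the CPM scale, 3 were higher and 0 lower in Tumor 1 (*Egr1*, *Errfi1* and *Tgif1*), and 2 were higher and 1 lower in Tumor 2, and the difference was still called for *Egr1*, *Pim1* and *Ski* but not for *Socs3* or *Dusp6*. *Egr1*, an immediate early gene, was 2843 CPM at the Border of Tumor 1 against 1021, 718 and 1079 CPM, and 1330.2 CPM at the Border of Tumor 2 against 2366, 2045 and 2051 CPM. Immediate early genes are also known to be switched on when tissue is dissociated, and the part of handling in these values was not tested. Of 22 receptors, 7 were tested, with 1 higher in each tumor (*Il10ra*, 0.91 ± 0.28, in Tumor 1, a call lost on the CPM scale, and *Tgfbr1*, 1.91 ± 0.41, in Tumor 2) and 0 lower. DESeq2 called 0 receptors in Tumor 1 but gave no adjusted p to 3 of the 7, and on the CPM scale *Il6ra*, the receptor chain for interleukin-6, was lower there (-1.72 ± 0.38, adjusted p = 4.99e-03). Of 13 processing genes and inhibitors, 5 were tested, with 0 called in Tumor 1 (2 at an unadjusted p under 0.05, and 0 by DESeq2, which gave no adjusted p to 1 of the 5) and 1 lower in Tumor 2 (*Thbs1*, an activator of latent TGF-β, -1.68 ± 0.29), where *Furin* was also higher on the CPM scale (0.81 ± 0.26). Of the related ligands, 1 was tested and 0 were called by edgeR (at an unadjusted p under 0.05, 0 in Tumor 1 and 1 in Tumor 2), and DESeq2 gave it no adjusted p.

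Between the Whole Tumors, the same 12 feedback and target genes in neutrophil-like cells gave 8 higher and 2 lower in Tumor 2 (median 1.11 beside -0.23; 40.2% of all genes were called), among them *Pim1* (2.60 ± 0.19) and *Socs3* (1.70 ± 0.22), a feedback gene of gp130 signaling. On the CPM scale this was 4 higher and 3 lower. Of 7 receptors, 3 were higher and 1 lower (*Tgfbr1*, -1.57 ± 0.30), and of 5 processing genes 2 were higher, *Thbs1* (2.84 ± 0.20) and *Nrros* (1.95 ± 0.29). On the CPM scale these counts were 2 higher and 2 lower (*Tgfbr1* and *Tgfbr2*) for receptors, and 2 higher and 3 lower (*Adam10*, *Adam17* and *Furin*) for processing genes. In all cells, where 25.2% of all genes were called, 8 of 21 receptors tested were higher and 1 lower (*Erbb3*, -2.04 ± 0.55), 4 of 13 processing genes were higher and 2 lower, 3 of 12 related ligands were higher and 0 lower, and 8 of 16 feedback and target genes were higher and 2 lower. On the CPM scale, receptors gave 5 higher and 2 lower, processing genes 3 and 4, related ligands 2 and 1, and feedback and target genes 6 and 2. In macrophage-like cells at the Border of Tumor 2, where 2.81% of all genes were called, 1 of 12 receptors was lower (*Acvr1b*, an activin receptor, -1.79 ± 0.50, a call lost on the CPM scale, adjusted p = 0.0633), 1 of 12 feedback genes was higher (*Smad7*, an inhibitor of TGF-β signaling, 1.41 ± 0.38), and 0 of 7 related ligands and 0 of 7 processing genes were called. At an unadjusted p under 0.05 these were 1 and 0, and DESeq2 called 0 genes of the 4 lists but gave no adjusted p to 5 of 12 receptors, 7 of 7 related ligands, 3 of 7 processing genes and 2 of 12 feedback genes.

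Likeness of pattern was measured as Pearson's r of log2(CPM + 10) over 89 sums of a class in a library, points that share libraries and depth, so r is a description. *Osm* was most like *Tlr2* (r = 0.84), *Wfdc17* (0.80) and *Csf2ra* (0.79). *Ereg* was most like *Rdh10* (0.73), *Ctgf* (0.69) and *Mmp2* (0.66), and *Vegfa* like *Rnf149* (0.68), *Cd14* (0.67) and *Litaf* (0.65). *Il6* was most like *C4b* (0.67) and *Inhba* like *Spp1* (0.60). For *Hbegf* the highest r was 0.57 (*Mmp14*), for *Tgfb1* 0.59 (*Ppm1a*) and for *Pdgfb* 0.61 (*Parvb*). *Il10*, with 82 UMIs, was left out.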

How the data were processed

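Cells of 8 Seq-Well libraries were counted as UMIs per gene. The authors demultiplexed with bcl2fastq 2.17.1.14, aligned to mm10 with STAR 2.5.2b by the Drop-seq protocol, and deposited raw UMI counts per gene and cell for 27923 genes, not normalized. Cell names in the tables carry the number of the other tumor than the labels, and the labels were followed. Strand use in counting is not given in the sources used here, so reads of antisense genes cannot be told apart.

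Barcodes with at least 200 genes were kept (405627 to 2029200 deposited UMIs per library) and put in the class with the most markers detected, at least 2. Called doublets (71, or 1.82%) were kept in the main result. UMIs were summed per class and library and tested with edgeR 4.0.16 (R 4.3.3): quasi-likelihood test, TMM, filter on low counts, Benjamini-Hochberg adjustment over all genes tested, threshold 0.05, with 1 coefficient per tumor and region over the 8 libraries. The SE given with an edgeR change was not estimated by edgeR itself. It was taken as the absolute change divided by the square root of the F statistic. Libraries with under 20 macrophage-like cells were left out of the macrophage-like fit. The pipeline was tested on simulated sums in which all genes and libraries had the same spread. That does not test whether a lone Border library varies like the arrays. CPM is UMIs per 1000000 UMIs of the class; limits for a count of 0 use 3 counts, and intervals are 95% exact. DESeq2 1.42.0, the plain library total, no filter, at least 500 genes, a stricter gate, no doublets, each Whole Tumor array left out (each library for the shares of UMIs by class) and a replicate block were alternatives; leaving out barcodes with 2 markers of a second class, and cells with a UMI of *Retnlg*, and the shares within each tumor, were added after seeing the data. A split on a further gene, some other genes and part of the genotype are not reported here. The members and lists were chosen with earlier results of these data known. All 10 members are named, and of each list the genes paired with a member or highest in a class; genes of a list that passed a test were named after their values were seen.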

Additional observations from a re-analysis of the deposited data

Results flagged for a closer look

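The change of *Osm* at the Border of neutrophil-like cells differed between the tumors, by -4.25 ± 0.47 on the log2 scale (Tumor 2 minus Tumor 1; edgeR's quasi-likelihood test, adjusted p = 2.14e-07). The change was 2.54 in Tumor 1 and -1.71 in Tumor 2, and the difference passed in 14 of 14 settings, with values from -4.45 to -3.29. The change of *Vegfa* differed by -1.27 ± 0.39 (adjusted p = 0.0382), with 0.76 in Tumor 1 and -0.51 in Tumor 2, and this passed in 7 of 14 settings, with values from -1.41 to -0.32. Each tumor is 1 mouse with 1 Border library, so tumor, mouse, sex and library cannot be told apart.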

How the results depend on the processing

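Of the values of called members under the alternatives, 196 kept the call and 38 lost it with the direction unchanged; of those not called, 6 passed, 19 turned in sign and the rest stayed so. *Inhba* and *Osm* at the Border of Tumor 1, the difference between the tumors for *Osm*, and *Osm* and *Hbegf* between the Whole Tumors passed in every setting run. So did *Vegfa* between the Whole Tumors in neutrophil-like cells, but not in all cells. The numbers of genes called in the Border comparisons of neutrophil-like cells (477 in Tumor 1, 428 in Tumor 2, 602 for the difference) became 977, 682 and 1274 on the CPM scale, 231, 179 and 227 with at least 500 genes, and 335, 95 and 237 without cells with a UMI of *Retnlg*. DESeq2 gave 313 and 366 for Tumor 1 and the difference, and no filter gave 248 and 369 for Tumor 2 and the difference. With 1 array left out they ran from 263 to 545 (lowest without array 3 of Tumor 1), 241 to 475 and 395 to 641 (both lowest without array 3 of Tumor 2). Between the Whole Tumors, the 2626 genes called in neutrophil-like cells became 4132 on the CPM scale, 1286 without cells with a UMI of *Retnlg* and 1655 to 2465 with 1 array left out (lowest without array 3 of Tumor 2), and the 2836 in all cells became 1854 with DESeq2 and 1914 to 2498 with 1 array left out. On the CPM scale the share of higher genes went from 26.7% to 86.9% for the difference and from 52.8% to 16.8% between the Whole Tumors in neutrophil-like cells. In macrophage-like cells, 161 became 60 with DESeq2, 36 without barcodes of a second class and 100 to 199 with 1 array left out (lowest without array 3 of Tumor 2). Neutrophil-like cells led 5 members in every setting but the libraries of Tumor 2 alone, and the mean level over libraries with at least 20 cells of a class, which left 7 small classes unranked; each gave 2. Turns in sign, all of values that did not pass, were as follows. For the difference between the tumors, *Inhba* was -0.0326 without a second class, -0.77 without *Retnlg* and -0.12 to 1.74 with 1 array left out. *Tgfb1* was 0.85 on the CPM scale and -0.34 to 0.0021 with 1 array left out (highest without array 3 of Tumor 2). *Hbegf* was 0.81 on the CPM scale, 0.37 without a second class and -0.53 to 0.69 with 1 array left out (highest without array 3 of Tumor 2). In macrophage-like cells *Areg* was -0.73 and *Osm* 0.65 without a second class, and *Osm* -0.43 to 0.11 with 1 array left out (highest without array 3 of Tumor 2). In all cells *Tgfb1* was -0.0682 and *Pdgfb* -0.0346 on the CPM scale, *Pdgfb* -0.13 to 0.65 and *Areg* -0.33 to 0.34 with 1 array left out. The cause was not tested. With the array number as a replicate block (Whole Tumor arrays only), 2171 and 2685 genes were called between the tumors in neutrophil-like and all cells, and no call of a member tested there changed; *Il10* in all cells was not tested under it. Deviations of same-numbered arrays had correlations of 0.0151 to 0.0208 and -0.0451 to 0.0703, so the numbers do not pair the arrays.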
